A study of Mus musculus with 3 samples.

Results

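The immediate early genes Fos, Jun, Junb, Egr1, Atf3, Ier2, Dusp1 and Klf6 and the inducible heat shock genes Hspa1a and Hspa1b were followed through the cells of the mouse small intestine. These 10 genes were given as a list by name, and all 10 were among the 13891 genes measured. Their levels were read in crypt, enterocyte, goblet, Paneth and T cells of 3 libraries, with the cells assigned by marker genes that did not include them.

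Immediate early genes are transcribed within minutes of a stimulus, from factors that the cell already holds. Fos, Jun and Junb are subunits of the dimeric transcription factor AP-1. Egr1 and Klf6 are zinc finger transcription factors, Atf3 is a stress-induced member of the ATF/CREB family, and Ier2 is a small nuclear protein of the early growth response. Dusp1 is a phosphatase that inactivates MAP kinases and so ends the signal that induces the others. Hspa1a and Hspa1b encode the inducible Hsp70 chaperone and are switched on by the transcription factor HSF1 when proteins unfold. The separation of a tissue into cells is also known to induce genes of both kinds.

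Cells came from the small intestine of male ICR mice, an outbred strain, that were 3 weeks old when treatment began. AOS 0 mice received vehicle, and B + A 0 mice received 1 injection of busulfan at 40 mg/kg, an alkylating anticancer drug, with vehicle by gavage. B + A 10 mice received the same busulfan injection and alginate oligosaccharides (AOS) by gavage at 10 mg/kg, and in all 3 groups the daily gavage lasted 2 weeks. Cells of 6 mice per group were combined and run as 1 library in droplets (10x Genomics, 3′ v2 chemistry), which marks each captured RNA molecule with a unique molecular identifier (UMI). With 1 library per group no test between groups was possible. All intervals below are 95% intervals that cover counting error only, and treatment, mice, day and handling of a library cannot be told apart. For dissociation the tissue, with the Peyer's patches removed, was kept in EDTA on ice for 90 min and then in steps of 30 min before TrypLE digestion, for 3 min in the sample labels and 1 min in the detailed methods.

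The libraries held 4106 (AOS 0), 3195 (B + A 0) and 5352 (B + A 10) cells with a median of 7371, 6407 and 3505 UMIs per cell, so the counts behind a B + A 10 value are thinner for each cell. Where 3 values follow each other below, they are for vehicle, busulfan and busulfan with AOS, in that order. Between 17 and 34 cell barcodes were shared by any pair of libraries. Of 20 clusters, 15 with 10781 cells (85.2%) were assigned to the 5 classes: 3272 crypt, 4513 enterocyte, 2185 goblet, 432 Paneth and 379 T cells. The marker genes of a class were higher in that class than in the other classes. The T cell clusters also carried goblet markers, at 438, 857 and 618 UMIs per 10000 beside 272, 197 and 265 of T cell markers. Crypt cells held crypt markers at 51.6, 53.1 and 48.8, beside goblet markers at 33.9, 76.6 and 62.5. Paneth markers (64.0 in B + A 0) and enterocyte markers (52.35 in B + A 10) also exceeded crypt markers there. A level is the sum of a gene's UMIs per 10000 UMIs of all cells of a class in a library. A gene was called higher or lower where its ratio between libraries was at least 1.5 or at most 0.667 and where both libraries together held at least 100 of its UMIs in that class.

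The promoters of Hspa1a and Hspa1b are shown first, because these genes differed most between libraries. They lie on chromosome 17 of GRCm38, on the minus strand, at 34969190 to 34972156 for Hspa1a and 34956436 to 34959238 for Hspa1b. The 250 bases before each RefSeq start site (GRCm38.p6, chr17:34972157-34972406 and chr17:34959239-34959488, minus strand) read as follows, with the match to the heat shock element GAANNTTC in capitals.
Hspa1a: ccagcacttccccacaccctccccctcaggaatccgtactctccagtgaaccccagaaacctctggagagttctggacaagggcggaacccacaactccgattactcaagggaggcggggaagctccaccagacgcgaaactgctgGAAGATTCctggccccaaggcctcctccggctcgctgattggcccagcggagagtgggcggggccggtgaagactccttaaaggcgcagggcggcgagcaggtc
Hspa1b: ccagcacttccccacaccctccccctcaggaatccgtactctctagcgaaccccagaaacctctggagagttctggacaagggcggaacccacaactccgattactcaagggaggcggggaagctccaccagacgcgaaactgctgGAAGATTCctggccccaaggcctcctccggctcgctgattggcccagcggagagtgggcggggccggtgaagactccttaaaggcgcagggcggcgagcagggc

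The windows of both genes were identical at 247 of 250 bases (98.8%), and in each the match began 104 bases before the start. GAANNTTC, which reads the same on both strands, was in 6.69% of 32851 RefSeq promoter windows of 250 bases. Among the 13488 windows of measured genes it was in 5.14%. The transcripts differ at their ends, where 3′ libraries are read: their last 500 bases were 47.0% identical in alignment, and 100% of the 98-base stretches in them were absent from the other gene. How reads shared by both genes were counted is not given in the sources used here, so the genes are given both singly and as a sum.

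Promoter windows were found for 8 of the 10 genes, and not for Egr1 and Ier2. The CRE core (TGACGT on either strand) was in 6.47% of all windows and 9.26% of the 13488 windows of measured genes. The 8-base AP-1-like site TGACATCA (either strand) was in 2.93% and 1.68%. The 5 immediate early promoters with a CRE core or the AP-1-like site are shown as stretches of 60 bases for comparison with the pair, the match in capitals.
Fos: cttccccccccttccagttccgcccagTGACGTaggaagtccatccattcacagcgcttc
Atf3: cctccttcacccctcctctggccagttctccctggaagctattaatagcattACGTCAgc
Dusp1: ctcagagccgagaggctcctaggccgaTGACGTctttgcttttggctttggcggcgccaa
Jun: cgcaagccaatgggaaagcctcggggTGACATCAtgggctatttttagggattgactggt
Klf6: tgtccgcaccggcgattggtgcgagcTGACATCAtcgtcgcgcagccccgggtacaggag

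They lie at chr12:85473797-85473856 (Fos, plus strand), chr1:191183334-191183393 (Atf3, minus), chr17:26508631-26508690 (Dusp1, minus), chr4:95052234-95052293 (Jun, minus) and chr13:5861344-5861403 (Klf6, plus). The matches began 66 (Fos), 8 (Atf3), 191 (Dusp1), 45 (Jun) and 119 (Klf6) bases before the start. Dusp1 held further CRE cores at 143 and 141 bases, which overlap on opposite strands, and Jun also held GAANNTTC at 128 bases. Junb held none of these letters in its window.

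Hspa1a and Hspa1b together were higher in B + A 0 than in AOS 0 in each of the 5 classes, and the 8 immediate early genes together were nearly level. In crypt cells the pair was at 0.466 UMIs per 10000 (502 UMIs), 0.920 (642) and 1.01 (676). In enterocytes it was at 0.229 (222 UMIs), 0.717 (457) and 0.989 (665), and in goblet cells at 0.0957 (50), 0.367 (144) and 0.638 (224). In these 3 classes AOS 0 was lowest and B + A 10 highest, with no overlap between the intervals of AOS 0 and those of the busulfan libraries. Paneth cells held 6, 52 and 14 UMIs of the pair (0.0247, 0.119 and 0.0688 UMIs per 10000), and T cells 10, 22 and 23 (0.126, 0.395 and 0.352). Both classes again had their lowest level in AOS 0, but on counts too few for a firm size.

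The ratio of the pair between B + A 0 and AOS 0 was 1.97 in crypt cells (1.75 to 2.22), 3.13 in enterocytes (2.66 to 3.69) and 3.83 in goblet cells (2.76 to 5.39). It was 4.81 in Paneth cells (2.07 to 13.7) and 3.14 in T cells (1.43 to 7.43). For B + A 10 against B + A 0 the ratio was 1.09 in crypt cells (0.981 to 1.22), 1.38 in enterocytes (1.22 to 1.56), 1.74 in goblet cells (1.41 to 2.16), 0.580 in Paneth cells (0.297 to 1.06) and 0.892 in T cells (0.475 to 1.68). With AOS the pair was therefore higher again in enterocytes and goblet cells beyond counting error, and the interval held 1 in the other 3 classes. The size of the ratio was not the same in all classes: the crypt interval for B + A 0 over AOS 0 lay below those of enterocytes and goblet cells. This holds for pooled classes, and clusters within a class also differed, with 0.997 in the goblet cluster led by Ido1. The comparisons share the B + A 0 library.

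**Figure D1:**
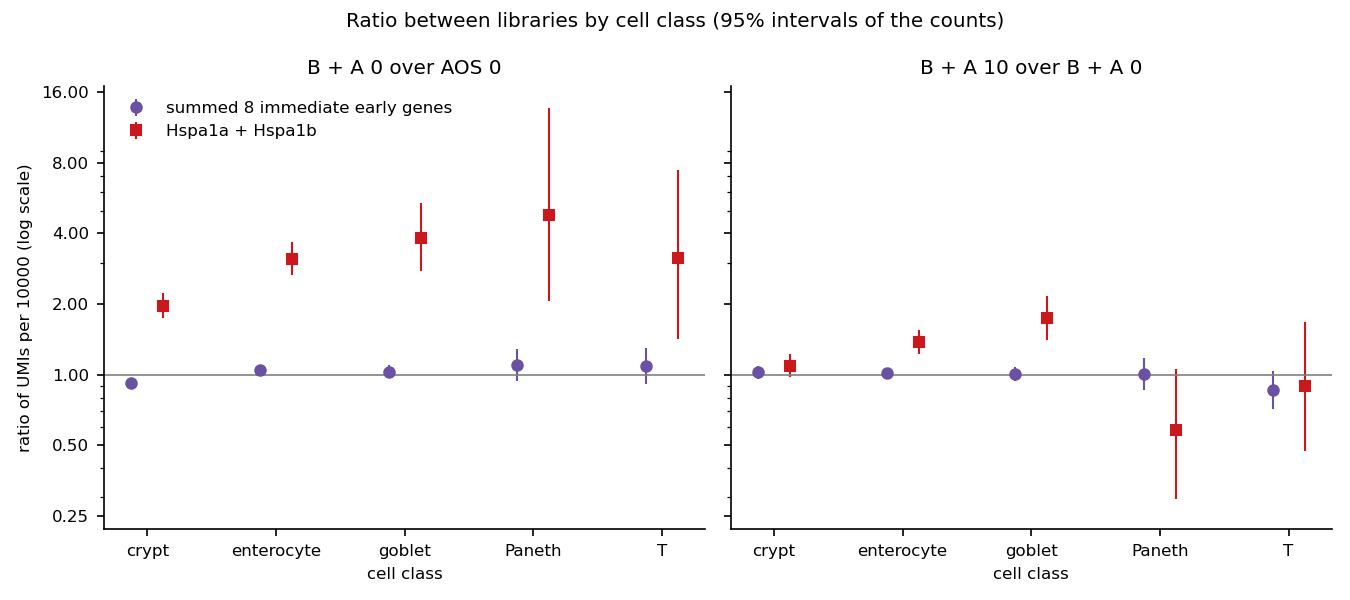
Ratio of UMIs per 10000 between libraries by cell class (log axis), B + A 0 over AOS 0 on the left and B + A 10 over B + A 0 on the right, for the sum of the 8 immediate early genes (circles) and of Hspa1a and Hspa1b (squares), with bars for 95% counting intervals. The immediate early sum stays between 0.860 and 1.10 in both panels, while the heat shock pair lies between 1.97 and 4.81 on the left and between 0.580 and 1.74 on the right.

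Both genes of the pair were lowest in AOS 0 in each class, and in crypt cells Hspa1a was highest in B + A 0. Hspa1b, the more counted gene, was at 0.362, 0.723 and 0.832 UMIs per 10000 in crypt cells, at 0.187, 0.552 and 0.738 in enterocytes and at 0.0689, 0.275 and 0.473 in goblet cells. Its ratio of B + A 0 to AOS 0 was 2.0 (1.75 to 2.28), 2.96 (2.46 to 3.56) and 3.99 (2.71 to 5.99). Hspa1a was at 0.104, 0.196 and 0.174 in crypt cells, 0.0423, 0.165 and 0.251 in enterocytes and 0.0268, 0.0917 and 0.165 in goblet cells. Its ratio was 1.89 (1.46 to 2.44) in crypt cells and 3.89 (2.69 to 5.73) in enterocytes, and 3.42 (1.80 to 6.86) in goblet cells on only 14 and 36 UMIs. Hspa1b took 77.7% (75.1% to 80.2%) of the UMIs of the pair, then 76.7% (74.6% to 78.7%) and 78.5% (76.7% to 80.2%) over all cells, and these intervals overlapped. By class its share moved in opposite directions, from 77.7% in AOS 0 to 82.7% in B + A 10 in crypt cells and from 81.5% to 74.6% in enterocytes, with overlapping intervals.

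Among the members with enough UMIs, 2 of 8 were called between B + A 0 and AOS 0 in crypt cells, Hspa1a and Hspa1b, beside 4.14% of all 8641 genes tested there. In enterocytes 4 of 9 were called, beside 3.61% of 7403 genes: Hspa1a, Hspa1b and Egr1 were higher and Atf3 was lower. In goblet cells 1 of 8 was called, Hspa1b, beside 4.39% of 5786 genes. No member was called in Paneth cells (0 of 4, beside 21.6% of 2492 genes) or T cells (0 of 2, beside 9.28% of 1885), where Hspa1a and Hspa1b had too few UMIs. The median ratio of all genes tested was 0.945, 0.967, 0.941, 1.18 and 0.931 in crypt, enterocyte, goblet, Paneth and T cells.

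In the comparison of B + A 10 with B + A 0 no member of 8 was called in crypt cells (2.05% of 8037 genes), 1 of 9 in enterocytes, Hspa1a at a ratio of 1.52 (2.99% of 6997 genes), and 1 of 8 in goblet cells, Hspa1b at 1.72 (3.19% of 5074 genes). Paneth cells had 0 of 4 (8.86% of 2437 genes), and in T cells no member had 100 UMIs (6.7% of 1612 genes called). Between B + A 10 and AOS 0 the called members were Hspa1a and Hspa1b in crypt cells (2 of 8, beside 7.55% of 8617 genes) and in enterocytes (2 of 8, beside 7.04% of 7487). Goblet cells had Hspa1b (1 of 8, beside 8.21% of 5679), Paneth cells Fos (1 of 2, beside 16.1% of 1548) and T cells none of 3 (10.9% of 2025). Of 6 immediate early genes tested in crypt cells and 7 in goblet cells, none was called in any of the 3 comparisons. Among so few genes, with 2.05% to 8.21% of all genes called there, the absence of calls is not particular to the members.

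Within a class the heat shock pair differed several fold between clusters, and among crypt cells it was highest where mitotic genes led. Clusters are named here by their first leading gene. Among crypt clusters the pair was at 0.823, 1.92 and 1.91 UMIs per 10000 in the cluster led by Cdc20, a mitotic gene, beside Ube2c and Ccnb1. It was at 0.374, 0.714 and 0.808 in the cluster led by the histone gene Hist1h2ao, and at 0.133, 0.352 and 0.400 in the cluster led by Olfm4 and holding the stem cell gene Ascl2 among its leading genes. Among enterocytes it was highest in the cluster led by Ms4a18 (0.484, 1.28 and 1.58) and lowest in that led by Slc5a12, a nutrient transporter (0.0801, 0.164 and 0.247). Goblet cells led by Agr2 had 0.0761, 0.512 and 0.762, those led by Ido1 had 0.0301, 0.0300 and 0.270, and those led by Muc2 had 0.206, 0.612 and 0.940. Of the 388 cells of the Muc2 cluster 62.1% were among the highest 5% of doublet scores, and the part of doublets in its level was not tested. Cells without a class, led by Gsdmc2 and Gsdmc4, had 0.644, 1.45 and 2.30, below the Cdc20 cluster in AOS 0 and B + A 0 and above it in B + A 10.

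The ratio of the pair between B + A 0 and AOS 0 was above 1 in 17 of the 18 clusters that held UMIs of it in AOS 0, with an interval above 1 in 15 and a median ratio of 2.81. The exception was the goblet cluster led by Ido1, at 0.997. For B + A 10 against B + A 0 it was above 1 in 13 of 20 clusters, with an interval above 1 in 8 and below 1 in 1. In the comparison of B + A 10 with AOS 0 the ratio was at least 1.5 in 18 of 18 clusters, from 2.16 to 10.0. For the immediate early sum 0 of 20 clusters passed 1.5-fold in either direction between B + A 0 and AOS 0, with ratios from 0.747 to 1.29. Of their intervals, 4 lay above 1 and 2 below. The other comparisons had 0 of 20 (B + A 10 over B + A 0) and 1 of 20 (B + A 10 over AOS 0, the lowest ratio 0.656, with 5 intervals above and 4 below 1).

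**Figure D2:**
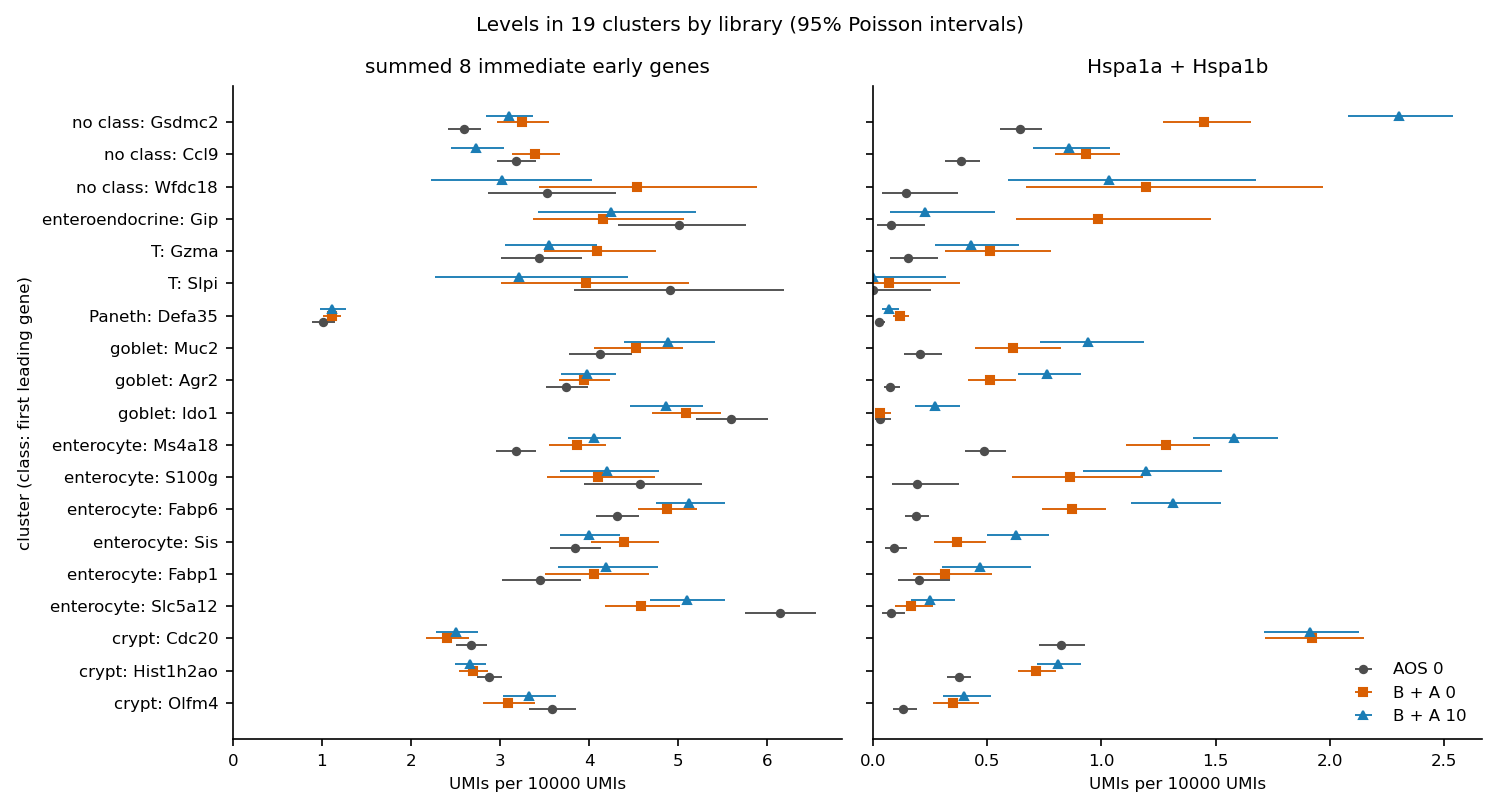
Levels in UMIs per 10000 of the summed 8 immediate early genes (left) and of Hspa1a and Hspa1b (right) in 19 clusters, named by class and first leading gene, for AOS 0 (circles), B + A 0 (squares) and B + A 10 (triangles), with bars for 95% Poisson intervals. On the right the AOS 0 circles lie to the left of the other symbols in nearly every cluster, with crypt Cdc20 at 0.823, 1.92 and 1.91, and on the left the 3 libraries mostly overlap; the 29 tuft cells are left out.

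The pair was seen in few cells. After each cell was thinned to 1000 UMIs, which left out no cell, a UMI of the pair was in 3.34% (2.36% to 4.58%), 7.77% (6.03% to 9.81%) and 7.90% (6.52% to 9.48%) of crypt cells of the 3 libraries. In enterocytes the percentages were 2.53% (1.78% to 3.49%), 6.07% (4.71% to 7.69%) and 7.02% (5.95% to 8.21%), and in goblet cells 1.66% (0.830% to 2.95%), 2.48% (1.39% to 4.06%) and 5.79% (4.36% to 7.50%). The cells with a UMI of the pair were thus more frequent in both busulfan libraries in crypt cells and enterocytes, and in goblet cells the interval of B + A 10 alone lay above that of AOS 0. Between B + A 0 and B + A 10 these intervals overlapped in crypt cells and enterocytes but not in goblet cells. No class is known to lack these genes. Paneth cells had 0.990%, 0.585% and 0.625%, with 1 cell in each library, where defensins take most UMIs, and 4.95%, 22.8% and 7.5% without thinning. T cells had 0 of 122 in AOS 0, which allows up to 2.98% (exact binomial limit), 3.70% in B + A 0 and 2.27% in B + A 10. Without thinning, 24.5%, 36.0% and 29.7% of crypt cells and 10.4%, 24.0% and 19.3% of enterocytes held a UMI of the pair, at medians of 8527, 7403 and 4194 and of 6086, 5362 and 2890 UMIs per cell.

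Cells with several UMIs of the pair were found in each library. At least 3 UMIs were in 1.27%, 4.17% and 2.60% of enterocytes and in 4.61%, 10.2% and 4.70% of crypt cells, and the most in a single cell was 19, in an enterocyte of B + A 0. In goblet cells the percentages were 0.151%, 1.98% and 2.73%. These shares are not thinned, and the lower depth of B + A 10 cells bears on them.

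Markers of other cells moved with these libraries as well. T cell markers in crypt cells, which should lack them, were at 1.37, 5.43 and 7.44 UMIs per 10000 in the 3 libraries, and at 1.71, 6.09 and 8.14 in enterocytes. Paneth markers in crypt cells were at 25.3, 64.0 and 42.2, and goblet markers at 33.9, 76.6 and 62.5. In each of crypt, enterocyte and goblet cells 29 genes were called higher in B + A 0 than in AOS 0 (0.533% of 5441 genes). Of these, 12 were fixed markers of Paneth, T or enteroendocrine cells and 4 were further genes with a Defa symbol. Among the rest, Gm14851 and Gm15292 were also leading genes of the Paneth cluster. The part of RNA from other cells in the heat shock ratios was not tested.

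Of other cells that the tissue could hold, B and plasma cell markers (3 of 4 listed) had 76, 0 and 27 UMIs in the 3 libraries, myeloid markers (3 of 4) 54, 34 and 34, and stroma and vessel markers (3 of 5) 15, 64 and 4. Igkc, Csf1r, Col3a1 and Acta2 were not listed. Hemoglobin genes (2 of 3) had 31, 713 and 486 UMIs, with 95.1% in 1 cell of B + A 0 and 94.4% in 1 cell of B + A 10. In cells without a hemoglobin UMI the heat shock pair was at 0.309, 0.680 and 0.933 UMIs per 10000, against 0.311, 0.675 and 0.932 in all cells. Ribosomal protein genes took 24.98%, 26.9% and 27.8% of crypt UMIs and 7.03%, 7.64% and 7.49% of enterocyte UMIs. No mitochondrial gene was listed.

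Other genes of the heat shock response, a list of 20 chaperones, cochaperones and HSF1, moved the same way only in part. Between B + A 0 and AOS 0, 3 of 18 tested were called higher in crypt cells (Hspa8, Hsph1, Chordc1), 3 of 18 in enterocytes (Hspa8, Hsph1, Dnajb4) and 4 of 17 in goblet cells (Hspa8, Hsph1, Dnajb1, Chordc1), and none was lower. Of all genes tested, 2.16%, 1.85% and 1.36% were called higher in these classes. The list's median ratios were 1.24, 1.19 and 1.10, beside 0.945, 0.967 and 0.941 for all genes. Hspa8, the constitutive Hsp70, was at ratios of 1.66 (1.61 to 1.70), 2.0 (1.92 to 2.09) and 2.04 (1.90 to 2.19) in crypt, enterocyte and goblet cells. Hsph1, the Hsp110 that exchanges the nucleotide of Hsp70, was at 2.30 (2.10 to 2.52), 3.18 (2.57 to 3.96) and 2.69 (1.88 to 3.90). Hsp90aa1, the inducible Hsp90, was at 1.31 (1.275 to 1.343), 1.18 (1.11 to 1.255) and 1.32 (1.19 to 1.46), above 1 but short of the called size. Hsp90ab1, a constitutive Hsp90, was at 1.11 (1.09 to 1.135), 1.02 (0.974 to 1.06) and 1.10 (1.035 to 1.18). Hspe1, the mitochondrial cochaperonin, was at 1.11 (1.08 to 1.13), 1.10 (1.05 to 1.16) and 1.04 (0.964 to 1.13). Neither was called.

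Hspa8 and Hsph1 were called in all 3 classes, as 2 of the 17 list genes that could be tested in each, beside 0.533% of all genes. In Paneth cells 4 of 12 list genes were called higher (Hspa8, Hsph1, Dnaja1, Fkbp4), beside 20.1% of all genes, and in T cells 2 of 11, beside 2.39%. Between B + A 10 and B + A 0, only Hsph1 in enterocytes was called higher (1.56, 1.33 to 1.82), with 0 of 18 in crypt cells, 0 of 17 in goblet cells, 1 of 13 in Paneth cells, which was lower, and 0 of 11 in T cells. For B + A 10 against AOS 0, 3 of 18, 6 of 18 and 5 of 17 were higher in crypt, enterocyte and goblet cells, beside 3.42%, 4.23% and 3.49% of all genes, and none was lower. Among the 15 list genes with a promoter window, 4 held GAANNTTC (Dnaja1, Hspb1, Hspe1, Fkbp4). The tail-to-tail form TTCNNGAA, which reads the same on both strands, was in 2 of them (Hsph1, Hspe1). It was in 7.17% of all windows and 5.9% of those of measured genes.

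**Figure D3:**
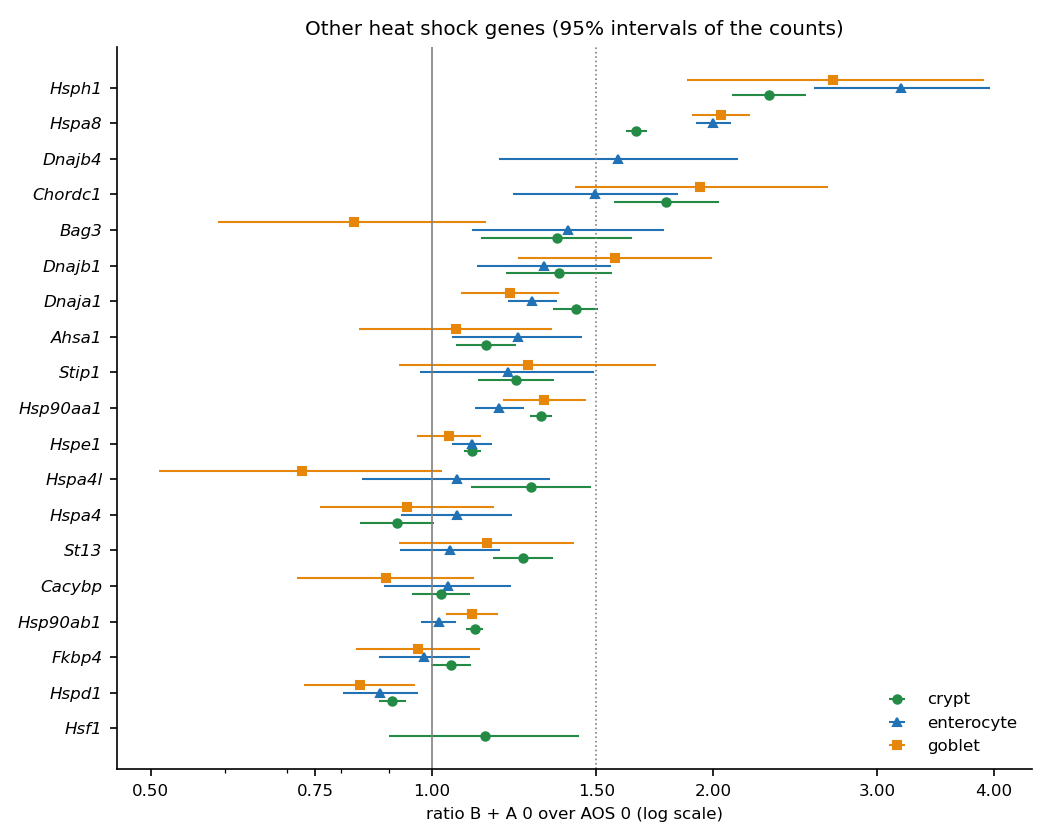
Ratio of B + A 0 to AOS 0 (log axis) for the other heat shock genes with at least 100 UMIs, in crypt cells (circles), enterocytes (triangles) and goblet cells (squares), with bars for 95% counting intervals and a dotted line at the fold of 1.5. Hsph1 and Hspa8 lie to the right of the dotted line in all 3 classes, from 1.66 to 3.18, whereas Hsp90ab1 lies at 1.02 to 1.11.

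The summed level of the 8 immediate early genes differed little between libraries in crypt, enterocyte and goblet cells. It was 2.95, 2.71 and 2.77 UMIs per 10000 in crypt cells, 4.17, 4.39 and 4.46 in enterocytes and 4.31, 4.44 and 4.46 in goblet cells. Paneth cells had 1.01, 1.11 and 1.12 and T cells 3.71, 4.05 and 3.49. Between AOS 0 and B + A 0 the enterocyte clusters moved both ways. The cluster led by Slc5a12 went from 6.14 to 4.59, and that led by Ms4a18 from 3.18 to 3.865. The classes kept their order in the 3 libraries, from goblet cells and enterocytes, whose intervals overlapped, through T cells to crypt cells and, lowest, Paneth cells. Defensins took 57.9%, 57.1% and 60.9% of Paneth UMIs, and without them the Paneth sum was 2.40, 2.59 and 2.86. Counted per cell, Paneth cells held 2.44, 2.85 and 1.42 immediate early UMIs, near the 2.87, 2.30 and 1.39 of crypt cells.

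The ratio of the sum between B + A 0 and AOS 0 was 0.918 (0.867 to 0.972) in crypt cells and 1.05 (1.00 to 1.10) in enterocytes. It was 1.03 (0.968 to 1.10) in goblet cells, 1.10 (0.940 to 1.28) in Paneth cells and 1.09 (0.915 to 1.30) in T cells. In the comparison of B + A 10 with B + A 0 it was 1.02, 1.02, 1.00, 1.01 and 0.860, and each interval held 1. The sum thus moved less than the heat shock pair in crypt cells, enterocytes and goblet cells, where their intervals for B + A 0 over AOS 0 did not overlap. After thinning, a UMI of an immediate early gene was in 24.0%, 22.6% and 22.8% of crypt cells, 35.4%, 34.4% and 35.0% of enterocytes, 35.1%, 32.7% and 36.5% of goblet cells and 10.9%, 11.7% and 11.9% of Paneth cells.

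The near level sum held genes that moved apart, the AP-1 subunits among them. Fos (chromosome 12, 85473890 to 85477273, plus strand) was at 0.512, 0.364 and 0.421 UMIs per 10000 in crypt cells, at 1.05, 1.07 and 1.15 in enterocytes and at 1.23, 1.14 and 1.26 in goblet cells. In crypt cells its ratio of B + A 0 to AOS 0 was 0.711 (0.610 to 0.826), and in enterocytes 1.02 (0.921 to 1.12). The crypt interval lay below 1, and the ratio stayed short of the called size. In Paneth cells it was at 0.185, 0.242 and 0.285 (45, 106 and 58 UMIs), with a ratio of B + A 10 to AOS 0 of 1.54 (1.03 to 2.33).

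Jun, the main partner of Fos (chromosome 4, 95049034 to 95052222, minus strand), was highest in B + A 0 in enterocytes, at 0.344, 0.501 and 0.394 UMIs per 10000, and in goblet cells, at 0.414, 0.560 and 0.439. Its ratio of B + A 0 to AOS 0 was 1.46 (1.24 to 1.70) in enterocytes and 1.35 (1.12 to 1.64) in goblet cells. Its ratio of B + A 10 to B + A 0 was 0.787 (0.666 to 0.929) and 0.784 (0.634 to 0.967). In both classes the level in B + A 10 lay between the other libraries, with intervals of B + A 10 over AOS 0 that held 1. T cells had the same order on few UMIs (33, 51 and 31; ratios 2.21 and 0.518), whereas crypt cells were at 0.682, 0.626 and 0.655.

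Junb (chromosome 8, 84974484 to 84978718, minus strand), an AP-1 subunit that can oppose Jun, was at 0.348, 0.314 and 0.262 in crypt cells, 0.777, 0.730 and 0.689 in enterocytes and 0.877, 0.761 and 0.812 in goblet cells. Its ratios of B + A 0 to AOS 0 were 0.900 (0.759 to 1.07), 0.940 (0.835 to 1.06) and 0.868 (0.748 to 1.01). Jun and Junb thus stood on opposite sides of 1 in enterocytes and goblet cells, though the intervals of Junb held 1. Among the 5 classes, Fos and Junb were highest in goblet cells in each library, while Jun was highest in crypt cells of AOS 0 and B + A 10 and in T cells of B + A 0.

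**Figure D4:**
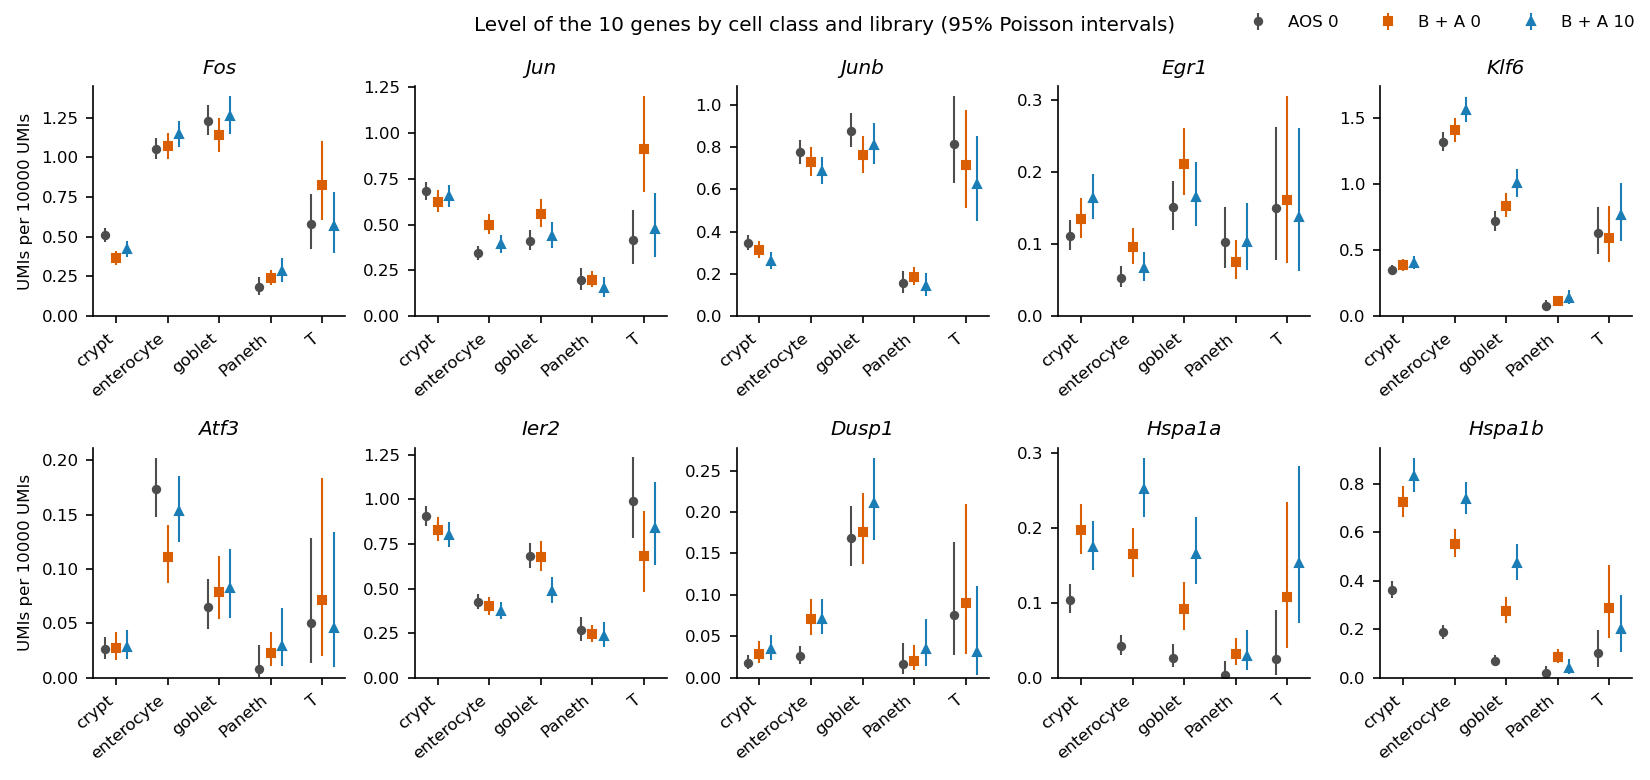
Level in UMIs per 10000 of each of the 10 genes in crypt, enterocyte, goblet, Paneth and T cells for AOS 0 (circles), B + A 0 (squares) and B + A 10 (triangles), with bars for 95% Poisson intervals and an own scale from 0 for each gene. Hspa1a and Hspa1b separate AOS 0 from both busulfan libraries, as in enterocytes (Hspa1b at 0.187, 0.552 and 0.738), and in enterocytes Jun (0.344, 0.501 and 0.394) is highest and Atf3 (0.174, 0.111 and 0.153) lowest in B + A 0.

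Atf3 (chromosome 1, 191170296 to 191218039, minus strand) was mainly an enterocyte gene, at 0.174, 0.111 and 0.153 UMIs per 10000 (168, 71 and 103 UMIs), and at most 0.0826 in the other classes. Its ratio in enterocytes was 0.642 (0.479 to 0.852) between B + A 0 and AOS 0 and 1.38 (1.01 to 1.89) between B + A 10 and B + A 0. The level was lowest in B + A 0, the reverse of Jun in the same cells. In the cluster led by Slc5a12 Atf3 was at 0.434, 0.145 and 0.132, while in the cluster led by Fabp6, the ileal bile acid binding protein, it was at 0.0676, 0.121 and 0.112. Of 8 other genes of the integrated stress response, the pathway to which Atf3 belongs, 4 could be tested in enterocytes and none was called, with a median ratio of 0.904. Ddit3, a stress-induced transcription factor of that pathway, was at 0.839 (0.693 to 1.01) in enterocytes and was called higher in goblet cells (1.78, 1.32 to 2.41).

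Egr1 (chromosome 18, 34859823 to 34864984, plus strand) was at 0.112, 0.135 and 0.164 UMIs per 10000 in crypt cells, 0.0537, 0.0957 and 0.0669 in enterocytes (52, 61 and 45 UMIs) and 0.151, 0.211 and 0.165 in goblet cells. Its ratio of B + A 0 to AOS 0 was 1.78 (1.21 to 2.63) in enterocytes and 1.40 (1.01 to 1.93) in goblet cells. As with Jun, B + A 0 was the highest library in both classes, but the intervals of B + A 10 over B + A 0, at 0.699 (0.465 to 1.04) and 0.782 (0.549 to 1.11), held 1. Outside the 5 classes Egr1 was at 0.491, 0.514 and 0.411 in enteroendocrine cells, its highest level among the clusters.

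Klf6 (chromosome 13, 5861482 to 5870394, plus strand) was lowest in AOS 0 and highest in B + A 10 in enterocytes, at 1.32, 1.41 and 1.56 UMIs per 10000, and in goblet cells, at 0.716, 0.835 and 1.00. Between B + A 10 and AOS 0 the ratio was 1.18 (1.09 to 1.29) in enterocytes and 1.40 (1.21 to 1.63) in goblet cells, short of the called size. In crypt cells it was at 0.346, 0.384 and 0.404, with intervals that held 1 in the 3 comparisons. Its highest cluster was the enterocytes led by Fabp6, at 1.55, 2.02 and 2.27.

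Ier2 (chromosome 8, 84661331 to 84662852, minus strand) was at 0.906, 0.831 and 0.801 UMIs per 10000 in crypt cells, 0.424, 0.402 and 0.373 in enterocytes and 0.684, 0.680 and 0.487 in goblet cells. In goblet cells its ratio of B + A 10 to B + A 0 was 0.717 (0.588 to 0.872). Among crypt clusters it was highest in that led by Olfm4, at 1.20, 1.05 and 1.03 (Jun 1.08, 0.901 and 0.966), where the heat shock pair was at its lowest among crypt clusters.

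Dusp1 (chromosome 17, 26505590 to 26562128, minus strand) was highest in goblet cells, at 0.169, 0.176 and 0.211 UMIs per 10000, and within them in the cluster led by Ido1, at 0.301, 0.300 and 0.330. In enterocytes it was at 0.0258, 0.0706 and 0.0714 on 25, 45 and 48 UMIs, with a ratio of B + A 0 to AOS 0 of 2.73 (1.64 to 4.65), too few UMIs for a call. The list of feedback genes of ERK, a MAP kinase, held 8 genes: Dusp6 and Spry, Spred and Etv genes. Of these, 3, 3 and 4 could be tested in crypt, enterocyte and goblet cells between B + A 0 and AOS 0. None was called, with median ratios of 1.13, 0.794 and 1.01. For B + A 10 against AOS 0 Spry2, an inhibitor of receptor tyrosine kinase signalling, was called higher in crypt cells (1.69, 1.29 to 2.203) and goblet cells (1.74, 1.25 to 2.41).

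Other immediate early genes, a list of 35 of which 33 were measured, had medians near 1. Between B + A 0 and AOS 0, 2 of 22 tested were called higher in crypt cells (Cyr61 at 1.51 and Sgk1 at 1.54), 1 of 20 was lower in enterocytes (Phlda1 at 0.638) and 0 of 17 were called in goblet cells. The median ratios were 0.962, 1.06 and 1.02. The most counted were Jund, an AP-1 subunit, at ratios of 0.907, 0.964 and 1.02, Btg1, an antiproliferative gene, at 1.14, 1.18 and 1.04, Klf4, a factor of goblet cell differentiation, at 1.41, 0.912 and 0.929, and Nfkbia, the inhibitor of NF-κB, at 0.896, 1.10 and 1.03. In the comparison of B + A 10 with B + A 0 Sgk1, a kinase of ion transport, was called higher in enterocytes (1.79, 1.61 to 1.99), Btg2 was lower in crypt cells (0.626), and none of 16 was called in goblet cells. Relative to AOS 0, crypt cells of B + A 10 had 4 of 21 called, beside 7.55% of all genes: Sgk1 was higher (2.13), and Ier5 (0.659), Btg2 (0.649) and Socs3 (0.584) were lower. Enterocytes had 0 of 20 and goblet cells 0 of 16 in that comparison.

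Detection in the same cells was compared after thinning. Among crypt cells with a Fos UMI, 39.7% (27.1% to 53.4%), 29.0% and 21.2% held a UMI of the other 7 immediate early genes, against 19.8%, 19.6% and 19.7% of cells without Fos. Only in AOS 0 did the intervals separate. In enterocytes the percentages were 27.9%, 36.8% and 28.9% with Fos and 28.3%, 27.0% and 27.5% without, and the intervals overlapped. Hspa1a was in 8.55% (4.17% to 15.2%) of B + A 10 enterocytes with Hspa1b and in 1.35% (0.886% to 1.98%) of those without, and in 11.9% (3.98% to 25.6%) against 1.26% (0.630% to 2.24%) of goblet cells.

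Cells with a UMI of the heat shock pair held immediate early UMIs about as often as other cells, with overlapping intervals in each library and class compared. In B + A 10 an immediate early UMI was in 33.6% of enterocytes with the pair and 35.1% of those without, and in 19.8% and 23.1% of crypt cells. Hspa8 was in 69.2% (61.0% to 76.7%) of B + A 10 enterocytes with the pair and 52.2% (49.9% to 54.5%) of those without, and Hsph1 in 13.3% (8.193% to 19.97%) and 5.49% (4.51% to 6.61%).

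The 4513 enterocytes were placed in 5 bins of equal cell number by a score. It was the share of villus tip gene UMIs among those of tip and base genes. Tip genes held 13980 UMIs and base genes 2153541, and the score rested mostly on Reg3b and Reg3g (90.1% of its UMIs). Place along the villus was not measured. A bin is a range of this score and not a cell type, and 866 cells scored within 10% of a boundary. In AOS 0 the immediate early sum was at 3.43 UMIs per 10000 in the first bin and 5.62 in the last, a ratio of 1.64 (1.48 to 1.82). In B + A 0 it was at 4.19 and 4.91 (1.17, 1.03 to 1.34), and in B + A 10 at 4.46 and 4.84 (1.09, 0.973 to 1.21). The AOS 0 interval lay above both others. Cells thinned to 1000 UMIs could not be ranked at the low end of the score. There 2448 of them tied at a score of 0, against 530 before, so depth was not matched here.

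In AOS 0 Atf3 had the highest ratio of last to first bin among the 8 immediate early genes, and Dusp1 had it in B + A 0 (3.24, 1.24 to 9.01) and B + A 10 (1.51, 0.537 to 4.41). Atf3 in AOS 0 was at 0.0539, 0.0921, 0.156, 0.150 and 0.486 UMIs per 10000 from the first to the last bin (10, 23, 30, 27 and 78 UMIs). In the first and last bins B + A 0 had 0.126 and 0.0529, and B + A 10 had 0.147 and 0.201. Its last bin over the first was 9.03 (4.66 to 19.6) in AOS 0, 0.419 (0.104 to 1.26) in B + A 0 and 1.37 (0.749 to 2.51) in B + A 10. Fos had ratios of 1.99 (1.61 to 2.48), 1.58 (1.20 to 2.07) and 1.18 (0.952 to 1.47). The heat shock pair had 1.20 (0.700 to 2.04), 0.726 (0.508 to 1.02) and 0.634 (0.483 to 0.826).

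Genes with a like pattern were sought over the 15 profiles of 5 classes in 3 libraries, among 9286 genes. Profiles of a class share its cells and those of a library its depth, so the correlations of log2 levels are a description. The summed immediate early genes were most like Tmem8 (r = 0.989), Ufm1 (0.988), Trim26 (0.985), Atp6v0b (0.985) and Arrdc4 (0.981). The heat shock pair was most like Gstp1 (0.931), Dnmbp (0.914), N4bp2 (0.911), Piga (0.909) and Romo1 (0.907). Gstp1, a glutathione transferase, was among the 29 genes called higher in crypt, enterocyte and goblet cells alike. That call compared the library of busulfan alone with that of vehicle. Levels of both libraries are among the 15 profiles, so the call is no independent sign of likeness.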

How the data were processed

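Single-cell RNA was counted by the authors with Cell Ranger 2.2.0 on mm10, after removal of cells under 200 genes and of genes seen in fewer than 3 cells. The deposited values are the natural log of 1 plus UMIs per 10000 UMIs of a cell, 1 table for 3 libraries, and whole UMIs were recovered from them (100% of 24333763 values within 0.01 UMI). Totals were 35258551 (AOS 0), 26044381 (B + A 0) and 23003083 (B + A 10) UMIs. Groups follow the sample titles and treatments, since the source names of the busulfan samples conflict with them. The source name of the B + A 0 sample names AOS 10, a group given AOS without busulfan. That of the B + A 10 sample names B + A 0. The digestion time differs between labels (3 min) and methods (1 min).

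Cells were clustered with Seurat 5.3.0 (R 4.3.3) after joining the libraries (2000 features, 20 dimensions, resolution 0.8), with 79 genes of the members and lists left out. A cluster took the class whose markers had the highest mean z-score, if above 0 and at least 0.5 above the next. This rule was chosen after the clusters were seen. Doublets were kept. The Scrublet threshold marked 18 cells and so did not work, and an alternative left out the 668 cells with the highest 5% of scores.

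Levels are pooled UMIs per 10000 with exact Poisson intervals, ratios have exact conditional binomial intervals, and shares have exact (Clopper-Pearson) intervals, all at 95%. They cover counting error only. A call needed a ratio of 1.5 or more, or 0.667 or less, and 100 UMIs. No test between groups was run. The ratios, their intervals and the call rule were tested on simulated pooled Poisson counts, without spread between cells. The other steps, such as clustering, thinning and bins, were not simulated. The text names the members, called genes of each list though not every call, and the 4 most counted genes of the other heat shock and other immediate early lists. Left out are the Paneth cell calls of the other immediate early list (Cebpb, Klf4, Zfp36l1, Phlda1) and of the integrated stress response list (Atf4). Some calls of the other heat shock list are given as counts only, such as those in T cells (Hspa8, St13). The members and lists were chosen with earlier results of these data known. The alternatives were other clusterings, cells with at least 500 genes, removal of doublet scores or of the 1% of cells with the most, means per cell and thinning, and, chosen after seeing the data, removal of 2 clusters with mixed markers. Python 3.11.15, numpy 2.4.6, scipy 1.17.1, pandas 2.3.3 and scanpy 1.11.5 were used.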

Additional observations from a re-analysis of the deposited data

Results flagged for a closer look

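Some members moved in opposite directions in different cell classes, and the difference between classes was not tested. Between B + A 10 and AOS 0 the ratio of Fos was 1.54 in Paneth cells (45 and 58 UMIs) and 0.823 in crypt cells. Between B + A 10 and B + A 0 Hspa1b had ratios of 1.15 in crypt cells, 1.33 in enterocytes and 1.72 in goblet cells, against 0.453 in Paneth cells, where it fell from 38 to 8 UMIs. The sum of the 8 immediate early genes had a ratio of 1.05 in enterocytes and 0.918 in crypt cells between B + A 0 and AOS 0, and of 1.07 and 0.939 between B + A 10 and AOS 0.

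Outside the 5 classes the heat shock pair was also above its AOS 0 level. In enteroendocrine cells it was at 0.986 UMIs per 10000 in B + A 0 (23 UMIs in 9 of 33 cells) and 0.0775 in AOS 0 (3 UMIs in 65 cells), a ratio of 12.7 (3.84 to 66.2). In B + A 0 1 cell held 8 of the 23 UMIs. In B + A 10 it was at 0.228 (5 UMIs), a ratio of 0.232 (0.0688 to 0.623) to B + A 0 and of 2.95 (0.573 to 19.0) to AOS 0. In tuft cells it was at 5.62 in B + A 10, with 21 UMIs in 8 of 13 cells, at 1.23 in B + A 0 (4 UMIs in 2 of 6 cells), and at 0 in the 10 cells of AOS 0, where 3 counts would give 0.573.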

How the results depend on the processing

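Over 140 alternatives to the 20 ratios of the summed genes between libraries, 137 moved within their counting intervals, 3 moved further and no called value changed direction. The heat shock ratio of B + A 10 to B + A 0 ranged over them from 1.075 to 1.16 in crypt cells, 1.37 to 1.44 in enterocytes and 1.41 to 1.79 in goblet cells. That of B + A 0 to AOS 0 ranged from 1.97 to 2.196 in crypt cells, 2.73 to 3.40 in enterocytes and 3.64 to 5.14 in goblet cells. For the immediate early sum, the mean of per-cell values gave 0.997 in enterocytes and 0.847 in Paneth cells, and clusters made without joining the libraries gave 1.30 in Paneth cells. The cause was not tested. In enterocytes thinned to 1000 UMIs, last bin over first, the immediate early sum became 0.901 in B + A 0 and 1.33 in B + A 10, and the heat shock pair 1.00 in B + A 10. There 2448 cells tied at a score of 0 and filled the first 2 bins, so the first bin is an arbitrary part of them and these values are no check of the gradient. With all UMIs of a cell in place of 1000, another immediate early gene was found with Fos, for vehicle, busulfan and busulfan with AOS, in 95.2%, 91.4% and 79.0% of crypt cells, 86.0%, 85.2% and 66.0% of enterocytes and 90.8%, 87.2% and 71.8% of goblet cells. Hspa1a was then found with Hspa1b in 18.6%, 27.0% and 16.2% of crypt cells and in 19.4% and 22.4% of enterocytes of B + A 0 and B + A 10. These shares rise with the UMIs counted per cell by construction.

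No paired analysis was possible because each group is 1 library. There is no replicate to leave out. Depth limits the Paneth and T cell values, most of which rest on fewer than 100 UMIs of a gene.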
